A study of Rattus norvegicus with 12 samples.

Results

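Npy, Oxt and Calca encode precursors of signalling peptides, and each was read by 1 clone with 2 neighbouring spots on the array. A clone here means the spots that share a symbol and a sequence accession in the probe annotation. The members were the array features whose only gene symbol in the probe annotation is Npy (Entrez Gene 24604), Oxt (25504) or Calca (24241), which gave 6 of 18144 features. In the annotation, 10118 features carried a single symbol. The rats came as 6 animal pairs, each with 1 animal described as alcoholic and 1 control, and each animal had its own array. Tissue labelled NTS was punched from slices, the punches were combined, and the RNA was amplified before labelling. Each array compared the animal's RNA, in Cy5, with a reference RNA, in Cy3. Strain, age, sex, the ethanol dose and its duration are not given in the sources used here, nor is what the reference was made of.

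All values are log2 ratios of sample over reference. The file does not state that direction; it was inferred from the dyes, and the opposite direction would reverse all signs. The median of each array was subtracted, so 0 is the middle feature of that array. A ratio against a reference shows neither how abundant a transcript is nor how the 3 genes rank by level. Array medians before centring lay between 0.35 and 1.85. Exact zeros, treated as missing, numbered 484 to 726 per array and occurred in 0 of the 72 member values. Fewer cells that make a peptide and less RNA per cell cannot be told apart in a punch. The label could not be checked against Th, Dbh or Chat, genes of noradrenergic and cholinergic neurons, since none of them was measured under a single symbol. Slc6a2, Slc18a2, Phox2a and Ddc, listed for the same neurons, were measured, but a ratio against the reference cannot show their abundance.

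Neuropeptides are cut from larger precursors, packed into dense-core vesicles and released to act on G protein-coupled receptors. Neuropeptide Y, the product of Npy, is a transmitter of many central and sympathetic neurons and takes part in feeding and in the control of blood pressure. Oxt encodes oxytocin together with its carrier neurophysin; its classical source is the magnocellular and parvocellular neurons of the hypothalamus, some of which project to the brainstem. Calca gives calcitonin in thyroid C cells and, by alternative splicing, the vasodilator peptide CGRP in sensory and motor neurons. The sources used here do not say which Calca transcript the clone detects. The comparison asks whether these precursors differ in the tissue between alcoholic animals and their controls.

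None of the 3 genes was called as different between the groups. Npy stood 0.32 above control on the log2 scale (SE 0.11, 6 pairs), which is 1.25-fold, and was higher in 5 of 6 pairs. Oxt stood 0.41 above control (SE 0.31), or 1.33-fold, and Calca at -0.08 (SE 0.18), or 0.948-fold. With the animal pair as a block in limma, the adjusted p was 0.999 for each of the 3 clones. That test called 0 of 12351 clones, or 0%, and the corresponding test on genes called 0 of 11835, also 0%. Of these clones 4997 had a single symbol with an accession, and of these genes 4497 had a single symbol. The others were features entered alone, and shares of all clones or all genes in these fits include them. At an unadjusted p under 0.05 the test on clones held 300, or 2.43%. The 3 members had unadjusted limma p-values of 0.022, 0.22 and 0.69.

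**Figure D1:**
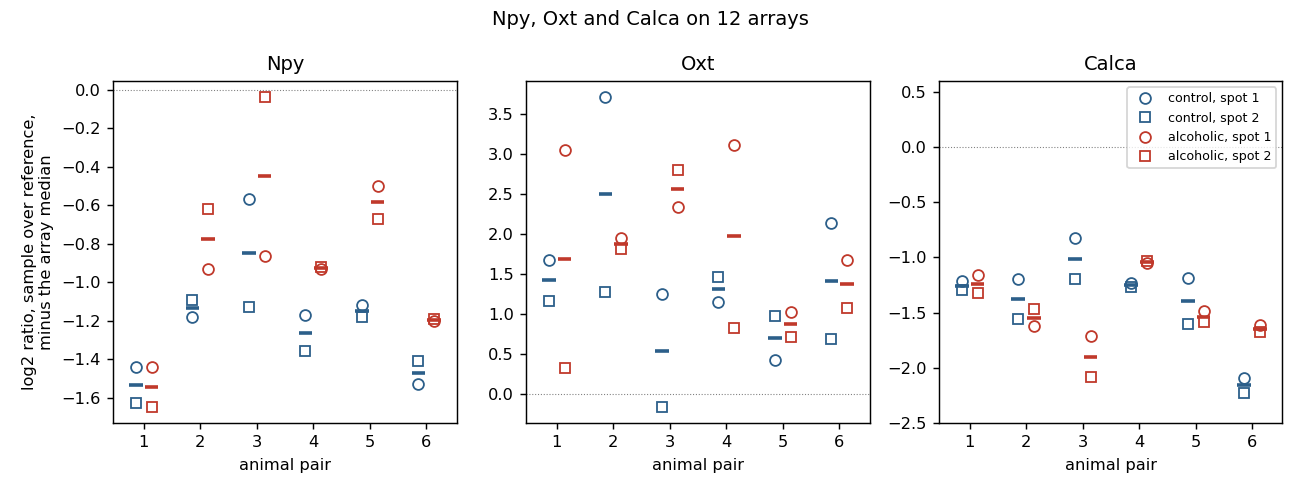
Centred log2 ratios of sample over reference for Npy, Oxt and Calca in each of the 6 animal pairs, with control animals in blue and alcoholic animals in red. Circles are spot 1, squares spot 2, and short bars the mean of both spots; Npy lies between -1.65 and -0.04 on single spots, and the 2 spots of Oxt lie up to 2.72 apart on 1 array.

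Of the 3 genes, Npy had the pair differences with the least scatter. The mean of its 2 spots in control animals was -1.54, -1.14, -0.85, -1.27, -1.15 and -1.47 in pairs 1 to 6. In alcoholic animals it was -1.55, -0.78, -0.45, -0.93, -0.59 and -1.20. The alcoholic animal of pair 1 was as low as its partner, and those of pairs 3 and 5 were the highest of all 12. Group means were -1.23 ± 0.25 (SD, n = 6) for controls and -0.91 ± 0.40 (SD, n = 6) for alcoholic animals. The groups overlapped, with 2 of 6 alcoholic animals inside the control range of -1.54 to -0.85. The alcoholic animal of pair 1 lay just below that range, and those of pairs 2, 3 and 5 lay above it. Such counts were not made over all clones.

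Within pairs, Npy differed by -0.01, 0.36, 0.40, 0.34, 0.57 and 0.28. Pair 1 showed hardly any difference and the other 5 pairs lay close together, with an SD of 0.19 over all 6. The 95% interval of the fit ran from 0.06 to 0.58, that is from 1.04-fold to 1.50-fold. A two-sided exact permutation test that exchanged the labels within pairs gave p = 0.0625, where 6 pairs can give 0.03125 at the least. By limma's unadjusted p Npy ranked at place 100 of 12351 clones. Of the 11478 clones measured in 6 pairs, 983 were higher in alcoholic animals in at least 5 pairs, or 8.56%, so Npy shared that count with many clones.

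The 2 spots of Npy did not give the same size. On spot 1 the pair differences were 0.00, 0.25, -0.30, 0.24, 0.62 and 0.33, with a mean of 0.19 (SE 0.14, exact permutation p = 0.25). On spot 2 they were -0.02, 0.47, 1.10, 0.44, 0.51 and 0.22, with a mean of 0.45 (SE 0.16, exact permutation p = 0.0625). In pair 3 the spots went opposite ways, and their mean lay near that of the other pairs. The gap between the pair differences of the spots averaged 0.34. The scatter that this gap by itself gives to the mean of 2 spots, its SD divided by 2, was 0.29. The averaged pair differences had an SD of 0.19, less than the gap between spots would give. Only 6.57% of clones had a smaller standard error than Npy, but many of those clones were single features and Npy was a mean of 2 spots. When each feature was fitted on its own, 26.4% of features had a smaller standard error than spot 1 and 40.4% than spot 2.

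**Figure D2:**
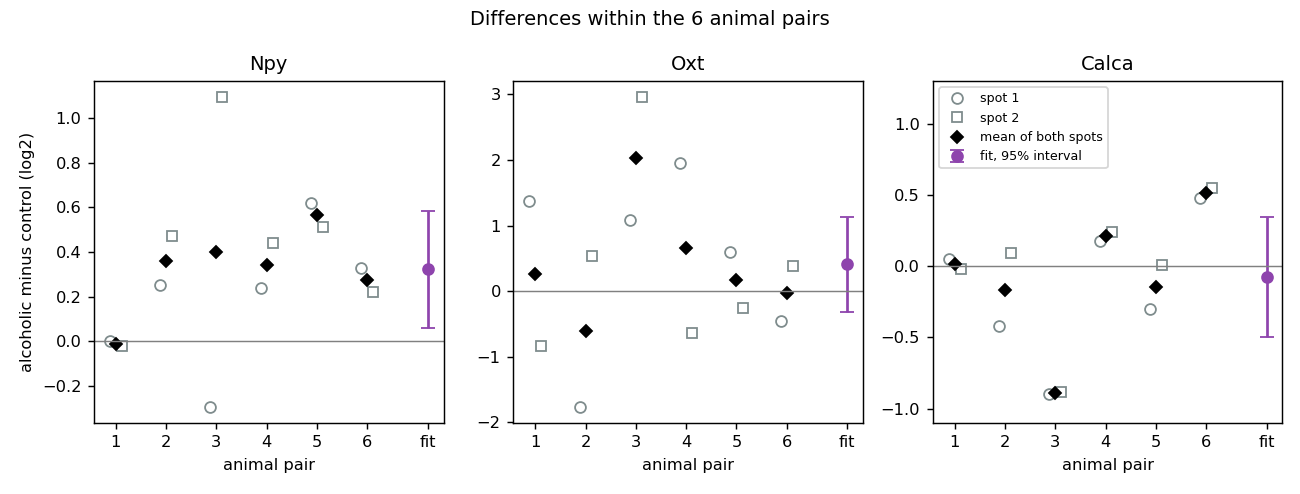
Difference of alcoholic minus control animal (log2) in each pair for Npy, Oxt and Calca, with open symbols for single spots, black diamonds for their mean and the fitted difference with its 95% interval at the right. The interval lies above 0 for Npy (0.06 to 0.58) and spans 0 for Oxt (-0.31 to 1.14) and Calca (-0.50 to 0.35); none passed an adjusted p of 0.05.

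Oxt had a wide spread in both groups. In control animals the mean of both spots was 1.43, 2.50, 0.55, 1.32, 0.71 and 1.42 in pairs 1 to 6. In alcoholic animals it was 1.69, 1.89, 2.57, 1.98, 0.88 and 1.38. The highest value belonged to the alcoholic animal of pair 3, whose partner was the lowest of all 12, and 5 of 6 alcoholic animals lay inside the control range. Group means were 1.32 ± 0.69 (SD, n = 6) for controls and 1.73 ± 0.57 (SD, n = 6) for alcoholic animals.

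The pair differences of Oxt were 0.27, -0.62, 2.03, 0.66, 0.17 and -0.04. Pair 3 carried most of the mean: without it Oxt differed by 0.09 (SE 0.19). The 95% interval over all 6 pairs ran from -0.31 to 1.14, or from 0.805-fold to 2.20-fold, and the exact permutation p within pairs was 0.31. The interval thus holds an increase of Oxt of up to 2.20-fold. The SD of Oxt over the 12 arrays, 0.64, was above that of 84.8% of clones.

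The 2 Oxt spots disagreed more than nearly all duplicate spots on the array. Their absolute difference averaged 1.10 over the 12 arrays, against a median of 0.22 (quartiles 0.15 and 0.28) for 2512 clones with 2 neighbouring spots measured on every array. That places Oxt above 99.9% of them, while Npy at 0.23 and Calca at 0.19 lay near the middle. Across arrays the spots of Oxt correlated with r = 0.11, those of Npy with r = 0.68 and those of Calca with r = 0.87, where the median clone had 0.71. These coefficients describe 12 arrays that share the reference RNA.

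Spot 1 of Oxt was the higher in 9 of 12 arrays, and the widest gap on 1 array was 2.72. Its pair differences were 1.37, -1.77, 1.09, 1.96, 0.60 and -0.46, and those of spot 2 were -0.84, 0.54, 2.97, -0.64, -0.26 and 0.39. Only pair 3 had the same sign on both spots. The SD of the gap between spots divided by 2 was 0.58, close to the SD of 0.64 that the mean of both spots had over the arrays. For Calca the same quantities were 0.090 and 0.34.

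**Figure D3:**
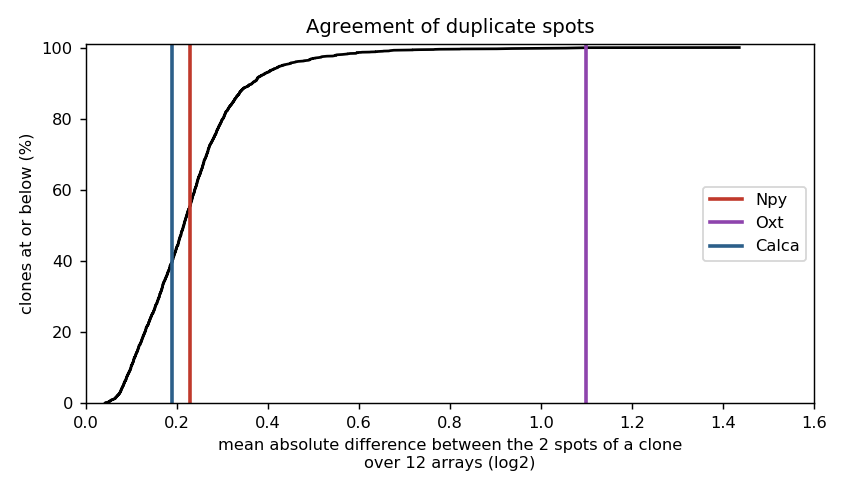
Share of 2512 clones (percent, vertical axis) whose 2 neighbouring spots differed by at most the value on the horizontal axis, the mean absolute difference over 12 arrays in log2 units. Vertical lines mark Calca at 0.19, Npy at 0.23 and Oxt at 1.10, which lies above 99.9% of the clones.

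Calca gave spots that agreed across the arrays and animals that did not. In control animals the mean of both spots was -1.26, -1.38, -1.01, -1.25, -1.40 and -2.16. In alcoholic animals it was -1.24, -1.55, -1.90, -1.04, -1.54 and -1.65. The control of pair 6 was the lowest of all 12 and the alcoholic animal of pair 3 the next lowest. All 6 alcoholic animals lay inside the control range, and the group means were -1.41 ± 0.39 (SD, n = 6) for controls and -1.49 ± 0.30 (SD, n = 6) for alcoholic animals.

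Within pairs Calca differed by 0.02, -0.17, -0.89, 0.21, -0.15 and 0.52. Pairs 3 and 6 lay far apart in opposite directions, and both spots showed this, with -0.90 and -0.89 in pair 3 and 0.48 and 0.55 in pair 6. The spots had the same sign in only 3 of 6 pairs. Their signs were opposite in pair 1 (0.05 and -0.02), pair 2 (-0.42 and 0.09) and pair 5 (-0.30 and 0.01). The mean of -0.08 had a 95% interval from -0.50 to 0.35, or from 0.707-fold to 1.27-fold, and an exact permutation p of 0.75. Without pair 3 the difference turned to 0.09, and without pair 6 it was -0.20. On single spots it was -0.15 and -0.00.

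Centring mattered for single pairs. The array median of the alcoholic animal minus that of its control was 0.61, -0.07, -0.92, 0.12, -0.73 and 0.67 in pairs 1 to 6. On the deposited values, before centring, Npy differed by 0.60, 0.29, -0.52, 0.46, -0.17 and 0.95, so pairs 3 and 5 then had the opposite sign and 4 of 6 pairs were higher. The mean without centring was 0.27 with an SE of 0.34. Calca differed by 0.63, -0.24, -1.81, 0.33, -0.88 and 1.19 before centring, with a mean of -0.13, and Oxt had a mean of 0.36.

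The centred differences were also set against the difference of the array medians over the 6 pairs, and no relation passed adjustment. A centred difference is the deposited one minus that difference of medians, so the 2 quantities share a term and are not independent by construction. For Npy the Pearson r was -0.77 (exact permutation p = 0.036) and Spearman's rho -0.89 (exact permutation p = 0.033). For Calca r was 0.82 (exact permutation p = 0.028) and rho 0.89 (exact permutation p = 0.033). For Oxt r was -0.54 (exact permutation p = 0.32) and rho -0.37 (exact permutation p = 0.50). The family held 12 relations, with Benjamini-Hochberg adjustment: for Npy and Calca the adjusted exact permutation p was 0.22 for r and 0.20 for rho. Leaving out the 2 pairs farthest from the median left r at -0.68 for Npy and 0.63 for Calca, over only 4 pairs, and 0.29 for Oxt. The part of the array medians in these differences was not tested.

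Over the 12 arrays themselves the array median and the centred value correlated with r = 0.09 and rho = 0.10 for Npy (permutation p = 0.76 for both). For Oxt they were r = -0.56 (permutation p = 0.057, adjusted 0.23) and rho = -0.54 (permutation p = 0.076, adjusted 0.31), and r was -0.53 without the 2 arrays farthest from the median. For Calca r was 0.36 (permutation p = 0.24) and rho 0.39 (permutation p = 0.22), with r = 0.22 without those arrays. The coefficient of Npy was thus near 0 over single arrays and -0.77 over pair differences.

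**Figure D4:**
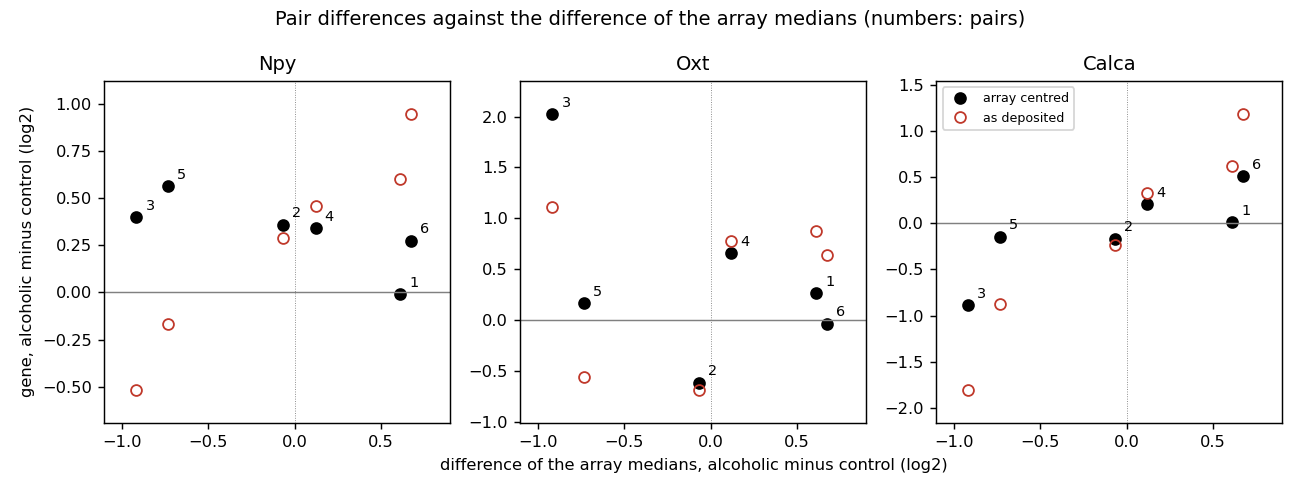
Difference of alcoholic minus control (log2) for each gene, mean of 2 spots, against the same difference of the array medians, with pair numbers beside the centred values in black and values as deposited in open red circles. Centred Npy differences lie at or above -0.01 in every pair, while the deposited ones are below 0 in pairs 3 and 5.

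No relation among the 3 genes passed the adjustment. Over the 12 arrays Npy and Oxt had r = 0.14 (permutation p = 0.66) and rho = 0.13 (permutation p = 0.68). Npy and Calca had r = -0.09 (permutation p = 0.77) and rho = -0.19 (permutation p = 0.56). Oxt and Calca had r = -0.25 (permutation p = 0.44) and rho = -0.20 (permutation p = 0.55). Without the 2 arrays farthest from the median r became -0.01, 0.32 and -0.07. Pair differences gave r = 0.12, -0.31 and -0.67, with exact permutation p-values of 0.86, 0.59 and 0.24. All arrays share the reference RNA, and the adjusted permutation p-values of r lay between 0.58 and 0.86.

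The genes whose centred ratios ran most like each member over the 12 arrays were taken from 4320 others with a single symbol and values on every array. For Npy they were Slc6a18 (r = 0.81, rho = 0.80), R3hdm2 (r = 0.78), Dusp9 (r = 0.78) and Zc3hc1 (r = 0.77). Slc6a18 encodes an amino acid transporter and Dusp9 a phosphatase of MAP kinases. Their pair differences followed those of Npy with r = 0.59 for Slc6a18 and 0.49 for Dusp9, but with -0.15 for R3hdm2 and -0.17 for Zc3hc1.

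For Oxt the nearest were Des, the muscle intermediate filament desmin (r = 0.84), Traf2, an adaptor of tumour necrosis factor receptors (0.84), Uqcc4 (0.82) and Rpap1 (0.78). For Calca they were Ccdc93 (r = 0.92), the transcription factor gene Mecom (0.88), the macrophage mannose receptor gene Mrc1 (0.88) and Sh3gl1, an endophilin of vesicle endocytosis (0.88). Their pair differences followed those of Oxt with r from 0.76 (Rpap1) to 0.96 (Traf2), and those of Calca with r from 0.85 (Mecom) to 0.99 (Sh3gl1). The Oxt values are the mean of 2 spots that correlated with r = 0.11. The coefficients over the 12 arrays were ordinary here. Over 4321 genes the highest coefficient of a gene with any other had a median of 0.91, and that of Npy was above only 5.32% and that of Oxt above 12.7% of them.

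Relatives of the 3 peptides were taken by kinship and function from the lists, and none passed the test. Avp, the vasopressin precursor gene that neighbours Oxt and shares its structure, had a mean of -0.72 ± 0.10 (SD, n = 6) in controls and -0.64 ± 0.23 (SD, n = 6) in alcoholic animals. The difference of 0.07 had a 95% interval from -0.19 to 0.34, and Avp was higher in 5 of 6 pairs. Pair 3 did not stand out, since Avp differed by 0.09 without it. The 2 spots of Avp lay 0.42 apart on average, above the upper quartile of 0.28 for clones with 2 neighbouring spots. The calcitonin family members Iapp (amylin) and Adm (adrenomedullin) differed by 0.20 (SE 0.16) and 0.06 (SE 0.15). Spots of Iapp lay 0.44 apart on average and those of Adm 0.26. Without pair 3 Iapp differed by 0.25, Adm by -0.02 and Calca by 0.09. The sign of Adm thus turned from positive to negative and that of Calca from negative to positive.

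Of 16 genes listed as receptors of these peptides or as their partners, 4 were measured, none with an unadjusted limma p under 0.05. Their mean differences were negative over all 6 pairs. Without pair 3, that of Npy1r turned to 0.22, and those of Calcrl, Ramp2 and Avpr1a were -0.32, -0.15 and -0.12. No other pair was left out for these genes, so how far their signs rest on single pairs is not known. The lowest pair difference was in pair 4 for Npy1r, in pair 5 for Calcrl (-0.85) and Avpr1a, and in pair 6 for Ramp2 (-0.56). Calcrl, the core of the CGRP and adrenomedullin receptors, differed by -0.21 (SE 0.18) and Ramp2, its partner for adrenomedullin, by -0.07 (SE 0.15). Npy1r, a receptor of neuropeptide Y, differed by -0.02 (SE 0.33), with pair differences from -1.27 to 0.84 and higher values in 4 of 6 pairs. Avpr1a, a vasopressin receptor that also binds oxytocin, differed by -0.17 (SE 0.17), was higher in 4 of 6 pairs and stood at -0.91 in pair 5. The median of the 4 was -0.12, against 0.01 over all 11835 genes and features entered alone, of which 5714 were negative. Oxtr, Ramp1, Npy2r and Npy5r were not measured under a single symbol.

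Of 70 precursors of neuropeptides and peptide hormones 18 were measured, 13 with positive and 5 with negative differences, and a median of 0.08. Over all 11835 genes and features entered alone, 6121 were positive, with a median of 0.01. Npy was the only one with an unadjusted limma p under 0.05, as were 2.45% of all genes, and 0 of the 18 passed the adjusted threshold. Npy and Oxt had the smallest p of the list and were also its highest values. The members were chosen with earlier results of these data known, so these ranks are a description and not a test. Next highest was Cck at 0.25, with a wide SE of 0.62 over 5 pairs. Further brain peptides were the nociceptin gene Pnoc at 0.15 (SE 0.12) and the enkephalin gene Penk at 0.13 (SE 0.16). The somatostatin gene Sst stood at 0.07 (SE 0.11) and the galanin gene Gal at -0.22 (SE 0.24). Cck and these genes were named after their values were seen.

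Genes that make, store or break down peptides were measured for 17 of 34, with 6 positive and 11 negative differences, a median of -0.05 and 0 passing. Pam, which amidates the carboxyl end that neuropeptide Y, oxytocin and CGRP share, differed by -0.12 (SE 0.11) over 2 clones. Mme, the peptidase neprilysin, differed by 0.63 (SE 0.47), but pair 2 stood at 3.41. Ptprn2, a dense-core vesicle protein, differed by 0.23 (SE 0.16), and Dpp4, which trims neuropeptide Y, by -0.05 (SE 0.14).

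Of 39 genes for second messengers and transcription factors 18 were measured, 7 positive and 11 negative, with a median of -0.01 and 0 passing. The adenylyl cyclase gene Adcy3 and the stimulatory G protein gene Gnas had the smallest p, at -0.26 (SE 0.13) and -0.17 (SE 0.12). Among 46 other peptide receptors only 3 were measured, with Bdkrb2, a bradykinin receptor, at -0.33 (SE 0.21) and Npr2, a natriuretic peptide receptor, at 0.09 (SE 0.10).

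**Figure D5:**
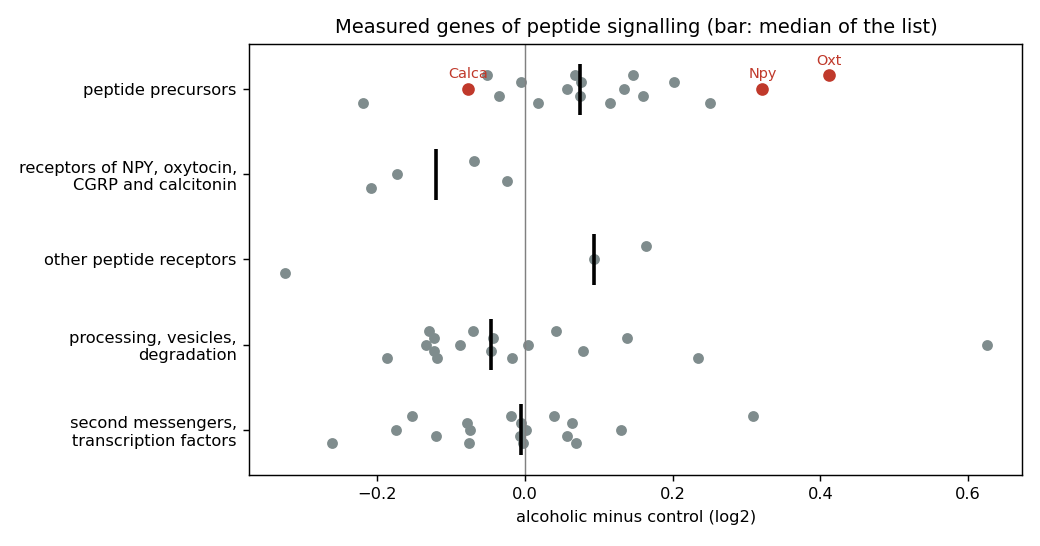
Differences of alcoholic minus control animals (log2, mean over 6 pairs for most genes) for each measured gene of 5 lists of peptide signalling, with Npy, Oxt and Calca in red and a black bar at the median of each list. Npy at 0.32 and Oxt at 0.41 are the highest of the 18 precursors, and none of the genes shown passed an adjusted p of 0.05.

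Markers of cell types in or near the tissue were set beside these values. In the astrocyte list 8 of 9 measured genes had positive differences, with a median of 0.18, and 0 passed. Over all 11835 genes and features entered alone, 6121 were positive, with a median of 0.01. Genes of a list were read on the same 12 arrays and are not independent. The mean of the 8 astrocyte genes complete on all arrays ran from 0.85 to 1.57 in alcoholic and from 0.62 to 1.27 in control animals. That mean was higher in 5 of 6 pairs, with pair 6 the exception at -0.25. Npy was also higher in 5 of 6 pairs, but its exception was pair 1. Of clones measured in 6 pairs, 8.56% were higher in at least 5. The 6 measured neuron markers split evenly, 3 positive and 3 negative, with a median of -0.00. For the hypothalamus and pituitary only Avp and Pomc of 10 were measured, with means per array from -0.89 to -0.63 in alcoholic and from -0.90 to -0.59 in control animals. For peripheral sensory neurons and Schwann cells only Trpv1 of 10 was measured, at -0.15 (SE 0.12). The part of these cell types in the values of Npy, Oxt and Calca was not tested.

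In the remaining marker lists 0 genes passed. Their counts stand beside the 6121 positive among all 11835 genes and features entered alone. Positive differences were found in 3 of 4 genes of catecholaminergic and cholinergic neurons (median 0.01), 3 of 5 of oligodendrocytes (0.04), 5 of 6 of microglia and macrophages (0.04), 1 of 7 of endothelium and vessel wall (-0.09) and 5 of 7 of choroid plexus, ependyma and leptomeninges (0.17).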

How the data were processed

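Per the labels, RNA from 12 punched samples was amplified, labelled indirectly and hybridized with a reference on arrays with 2 colours. The deposited values are log2 ratios; the log base was read from their size, and image analysis, background correction and normalization are not given in the sources used here. Signals over background were not used here. The number of arrays limits the precision.

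Exact zeros were set as missing and each array was centred on its median. Spots with the same accession and the same single symbol were averaged into clones, and features with the same single symbol into genes. Any other feature stayed a unit of its own and was counted among the clones or genes. Each member had 1 clone, so both gave the same difference. A unit entered limma 3.58.1 in R 4.3.3 (lmFit, eBayes) if at least 4 pairs had both arrays. The model held group and animal pair, and p-values were adjusted over everything tested by Benjamini-Hochberg, with a threshold of 0.05. The labels state the pairs. Deviations from group means correlated within pairs 1 to 6 with r of 0.26, 0.34, 0.01, 0.43, 0.20 and 0.09 over 11011 genes and features entered alone. Exact permutation tests exchanged labels within pairs in 64 ways; relations over 12 arrays used 100000 permutations (scipy 1.17.1). All such tests were two-sided. The fits were tested on simulated data.

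Symbols come from an older platform annotation and can be out of date. Named genes were all member features, the 2 smallest p of each peptide list, the 4 most similar genes of each member, and relatives chosen by kinship or function. Further precursors (Cck, Pnoc, Penk, Sst and Gal) were named after their values were seen. The 14 lists hold 308 symbols, matched as written. The members and lists were chosen with earlier results of these data known. The series text calls the 6 animals of a group biological repeats, so the animal is the replicate. Alternatives covered the block, zeros, centring, quantile normalization, the minimum of pairs, single spots, variance trend and each pair left out.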

Additional observations from a re-analysis of the deposited data

Results flagged for a closer look

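Calca in the control animal of pair 6 lay far below the other 5 control animals. The mean of both spots was -2.16 there, and the others ran from -1.40 to -1.01. On spot 1 it was -2.09 against -1.23 to -0.82. The gap to the nearest animal was 0.665 of the group's range on the mean and 0.677 on spot 1. On spot 2 the gap was 0.612 of the range and did not pass the critical value. Of 18 groups tested for a far animal, 2 were marked, namely the mean and spot 1 of Calca in controls. Chance alone marks about 1 in 20 groups, and the spots and their mean are not independent, so this is 1 animal in 1 gene.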

How the results depend on the processing

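None of the 3 genes passed an adjusted p of 0.05 in limma under any alternative run. Without the pair block (no replicate block), Npy differed by 0.32 with an SE of 0.20 and an unadjusted limma p of 0.12, and the block changed no call. Leaving out 1 pair gave 0.27 to 0.39 for Npy, 0.09 to 0.62 for Oxt and -0.195 to 0.086 for Calca, whose sign turned without pair 3; the cause was not tested. Other alternatives gave 0.19 to 0.45 for Npy, 0.36 to 0.46 for Oxt and -0.15 to -0.00 for Calca. Adjusted limma p of the 3 clones lay between 0.95 and 1 over all alternatives. Without centring, 4 clones and 4 genes or unnamed features passed, namely Lyl1, Scrt1 and the same 2 unnamed features in both fits. In the test on clones Lyl1 differed by -2.14 without centring and -2.09 with it, and Scrt1 by 2.43 and 2.48. The unnamed features differed by -2.61 and 2.34 without centring, and by -2.525 and 2.43 with it. With centring their adjusted limma p was 0.999. The cause was not tested, and these were named after their values were seen. Every other alternative called 0. Signal over background was not used here, so it is unknown which spots were dim. With 6 pairs, the interval of Oxt reached 2.20-fold.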
